A study of Mus musculus with 46 samples.

Results

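The levels of 10 genes of the Notch signaling pathway were followed across mouse synovial sarcomas. The genes were the 4 receptors Notch1, Notch2, Notch3 and Notch4, the ligands Jag1, Jag2 and Dll1, and the transcriptional targets Hes1, Hey1 and Hey2. They were chosen by name, as pathway members, from the 57067 genes counted in 46 tumors. All 10 passed the filter on low counts in every comparison. Pecam1, an adhesion molecule of endothelial cells, was read beside them as the measure of the endothelial share of each tumor.

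Each library was 1 tumor of 1 mouse. In the hSS2 background the tumors expressed the human fusion gene SS18::SSX2, and in the hSS1 background SS18::SSX1, in both cases from Rosa26 after TATCre protein had been injected into a limb at 8 days of age. There were 13 hSS2 control tumors, 8 hSS2 Pbrm1-fl/fl, 8 hSS2 Arid1a-fl/fl and 8 hSS2 Arid1b-fl/fl tumors, 5 hSS1 control tumors and 4 hSS1 Pbrm1-fl/fl tumors, called Pbrm1-fl, Arid1a-fl and Arid1b-fl from here on. Control mice carried the fusion gene and received the same Cre protein, but no floxed remodeler gene. Mice of both sexes and of a mixed strain, given as CB57Bl/6-svJ, were used at an age of 2 to 6 months, and the age of each mouse was not used here. PBRM1 belongs to the PBAF chromatin remodeling complex, whereas canonical BAF holds either ARID1A or ARID1B. RNA came from whole pieces of frozen tumor, so endothelial, immune and stromal cells, which may not have recombined the floxed alleles, were read with the tumor cells.

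Library depth ran from 10.14 to 21.29 M counted reads, where M is 1000000. Mouse numbers fell in ranges that coincided with the floxed gene: all 8 hSS2 Pbrm1-fl mice had numbers of at least 2000 (the high range), all 8 Arid1a-fl mice numbers under 1000 (the low range), and all 8 Arid1b-fl mice numbers between (the middle range), while hSS2 control mice had 5 in the low, 4 in the middle and 4 in the high range. In hSS1, all 4 Pbrm1-fl mice were in the middle range, while control mice had 3 in the middle and 2 in the high range. Tumors of hSS1 and hSS2 were counted in separate tables, so background and table cannot be told apart. Each floxed gene had a lower mean level in its own group. Pbrm1 had 105 ± 15.4 CPM in hSS2 Pbrm1-fl tumors against 253 ± 37 in the controls (log2 -1.27, edgeR adjusted p = 4.2e-12), and Arid1a had 254 ± 14.3 against 487 ± 87.4 (log2 -0.95, edgeR adjusted p = 7.01e-05). Arid1b had 203 ± 89.6 against 352 ± 111 CPM (log2 -0.80, edgeR adjusted p = 0.145), and Pbrm1 in hSS1 had 186 ± 62.1 against 315 ± 38 (log2 -0.75, edgeR adjusted p = 0.193), with all 4 floxed tumors below all 5 controls. The differences of Arid1b and of Pbrm1 in hSS1 did not pass the threshold of 0.05. CPM are counts per 1000000 counted reads, scaled here with TMM factors over the 46 libraries, and ± is the SD over tumors throughout. Of the 3 synovial sarcoma markers read, none was at 0 in any group.

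Notch receptors are membrane proteins that are cut when a ligand on a neighboring cell binds them. The freed intracellular part enters the nucleus, joins the DNA-binding protein RBPJ and a Mastermind coactivator, and turns on target genes. HES and HEY proteins are basic helix-loop-helix repressors and the classic targets. In vessels, NOTCH1 and NOTCH4 act in endothelial cells and NOTCH3 in mural cells, while JAG and DLL ligands are shared by many cell types.

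Levels between genes were compared per length, as TPM (counts per exon length, scaled to sum to 1000000), over the 37 hSS2 tumors. Hes1 had the highest median, 205 TPM (range 107 to 445), followed by Notch2 with 192 (127 to 696) and Jag1 with 168 (68.2 to 340). The spread of these 3 overlapped: Hes1 exceeded Notch2 in 22 of 37 tumors, and Notch2 exceeded Jag1 in 23. A wide step came next, since Jag1 exceeded Notch1 in 37 of 37 tumors. Notch1 had a median of 54.7 TPM (18.8 to 110), Hey1 of 53.2 (19.1 to 110) and Notch3 of 48.2 (19.6 to 130), and these neighbors also overlapped, with Notch1 above Hey1 in 19 tumors and Hey1 above Notch3 in 25. Jag2 had a median of 24.7 TPM, Dll1 of 13.5, Notch4 of 10.2 and Hey2 of 5.46. Notch3 exceeded Jag2 in 33 tumors, Jag2 exceeded Dll1 in 28, Dll1 exceeded Notch4 in 27 and Notch4 exceeded Hey2 in 28.

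In the 9 hSS1 tumors the order by median was similar but not the same. Hes1 again came first with 266 TPM, Jag1 had 152, Notch2 141, Hey1 61.8, Notch1 58.9, Notch3 47.9, Dll1 25.4, Jag2 15.6, Notch4 11 and Hey2 3.75. Dll1 stood above Jag2 there, the opposite of hSS2, and no test was run across the separately counted tables. Notch2 was the highest receptor in all 46 tumors. Its median share of the summed receptor TPM was 61.9% in hSS2 control, 66.7% in Pbrm1-fl, 62.0% in Arid1a-fl, 65.0% in Arid1b-fl, 52% in hSS1 control and 64.4% in hSS1 Pbrm1-fl tumors.

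**Figure D1:**
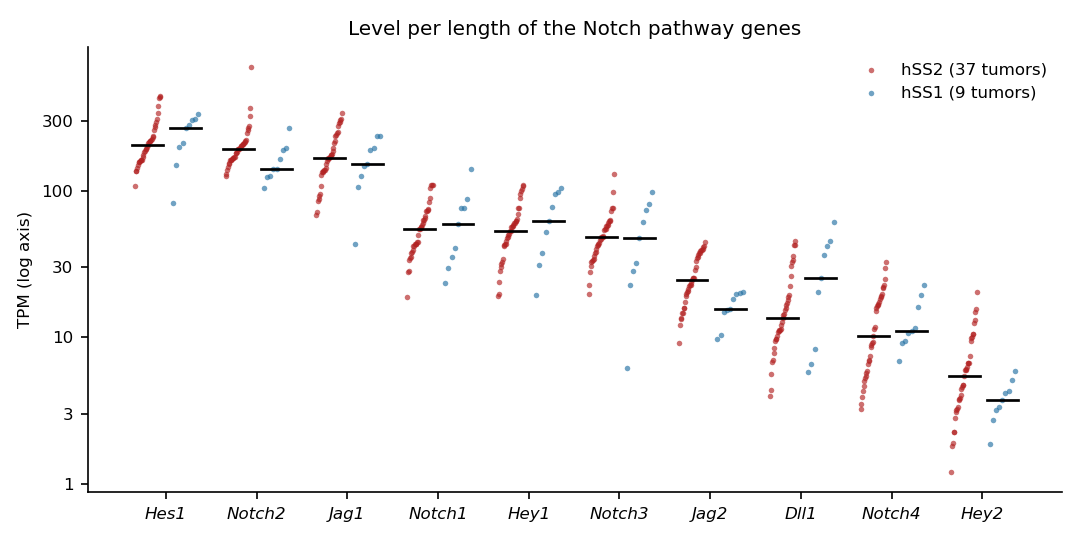
Level per length (TPM, log axis) of the 10 genes, ordered by their median in hSS2. Each point is 1 tumor (37 hSS2 in red, 9 hSS1 in blue) and each bar the median, from 205 for Hes1 to 5.46 for Hey2 in hSS2.

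The loss of Pbrm1 in hSS2 went with higher levels of 1 receptor, 1 ligand and 1 target. Notch2 was 1.53-fold, Jag2 1.63-fold and Hes1 1.57-fold higher in Pbrm1-fl than in control tumors, 3 of 10 genes, where 7.35% of the 20083 genes tested were called in this comparison. No member fell. Of the 10 log2 differences 8 were above 0, with a median of 0.33, beside a median of 0.00 over all genes, 49.5% of which were above 0. Notch1, at 0.01, is counted among the 8 and was just below 0 with DESeq2 size factors. Over the 8 alternative settings it ran from -0.4 to 0.04. Notch4 ran from 0.05 to 0.46, Jag1 from 0.01 to 0.29, Hey1 from 0.12 to 0.25 and Hey2 from 0.38 to 0.67. Notch2, Jag2 and Hes1 stayed at 0.33 or above. Below 0 throughout were Notch3 (-0.6 to -0.09) and Dll1 (-0.9 to -0.58). Calls rest on edgeR's quasi-likelihood test with Benjamini-Hochberg adjustment over all genes tested, at 0.05.

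Notch2 (ENSMUSG00000027878, GRCm38 chr3:98013527-98150361, plus strand) encodes the main receptor here. In the 13 control tumors it ran from 423 CPM through a median of 519 to 646, and in the 8 Pbrm1-fl tumors from 436 through 694 to 1801. Replicates 1 to 8 had 708, 953, 1801, 679, 500, 856, 546 and 436 CPM. The groups overlapped, but 5 of the 8 Pbrm1-fl tumors stood above every control, and replicate 3 stood far above the rest. The log2 difference was 0.62 (SE 0.16, edgeR adjusted p = 0.0124). Without Pbrm1-fl replicate 3 it was 0.33 with edgeR adjusted p = 0.0871, so this call rested on that tumor. Replicate 3 was also highest of the 8 in Notch3, Jag2 and Hey2 and lowest in Pecam1 (31.2 CPM) and in the summed endothelial markers (295 CPM).

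Jag2 (ENSMUSG00000002799, chr12:112907819-112929776, minus strand) encodes a Serrate-type ligand. Its levels were 22.4, 36.4 and 65.3 CPM as the lowest, median and highest of the controls, and 60.1, 65.8 and 70.2 CPM in Pbrm1-fl. The floxed group was tight, at 65.0 ± 3.94 CPM (n = 8) against 39.8 ± 13.6 (n = 13). All 8 Pbrm1-fl tumors stood above the control median and 5 above every control. The log2 difference was 0.71 (SE 0.21, edgeR adjusted p = 0.0338). It lay between 0.64 and 0.79 with each library left out in turn, but the adjusted p rose past 0.05, to at most 0.0652, in 11 of 37 such fits, those without Pbrm1-fl replicate 2, 3, 5, 7 or 8 or control replicate 6, 7, 8, 9, 11 or 13.

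Hes1 (ENSMUSG00000022528, chr16:30064384-30067796, plus strand) encodes a repressor induced by Notch in many tissues. It ran from 57.7 through a median of 93.6 to 146 CPM in controls and from 67.3 through 171 to 221 CPM in Pbrm1-fl. The 8 floxed tumors fell apart, at 80.6, 67.3, 167, 200, 176, 108, 212 and 221 CPM. Of these, 5 exceeded every control, while replicates 1 and 2 lay below the control median. Replicates 1, 2 and 6, the lowest in Hes1, were the highest of the 8 in summed skeletal muscle markers (16052, 7380 and 14609 CPM). The same tumors were also highest in fibroblast (13340, 8919 and 5571 CPM), mural (1250, 896 and 1172) and macrophage markers (739, 489 and 509). T cell markers were highest there too (21, 3.19 and 3.82 CPM). The part of these cell types in this split within the group was not tested. The log2 difference of Hes1 was 0.65 (SE 0.19, edgeR adjusted p = 0.0296). Left-out libraries moved it between 0.57 and 0.75, and the adjusted p rose to at most 0.0837 without Pbrm1-fl replicate 3, 4, 5, 7 or 8 or control replicate 3, 9 or 13. From tumor to tumor, Notch2, Jag2 and Hes1 showed little relation to one another. Across 37 hSS2 tumors, centered on group means, Pearson's r of log2 CPM was -0.25 for Notch2 with Hes1, 0.12 for Notch2 with Jag2 and -0.03 for Jag2 with Hes1.

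**Figure D2:**
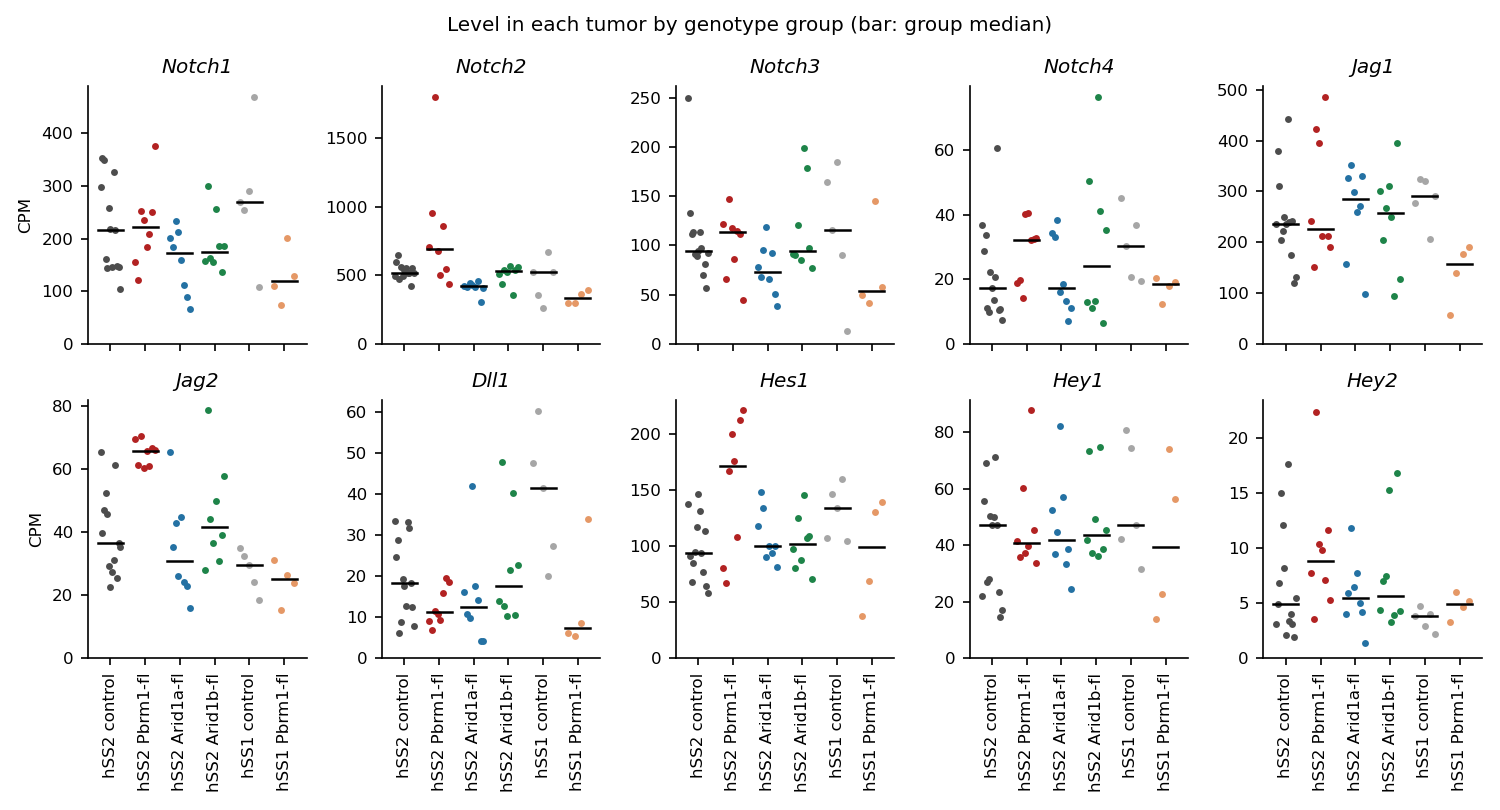
CPM of each gene in each of the 46 tumors, by genotype group, with the group median as a bar. Notch2, Jag2 and Hes1 are the panels in which 5 of 8 hSS2 Pbrm1-fl tumors lie above all 13 hSS2 controls.

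The other 7 members did not pass the test between Pbrm1-fl and control tumors in hSS2. Among receptors the log2 difference was 0.01 for Notch1 (SE 0.24, edgeR adjusted p = 0.984), -0.08 for Notch3 (SE 0.24) and 0.41 for Notch4 (SE 0.40). Jag1, the other Serrate-type ligand, was at 289 ± 126 against 245 ± 90.2 CPM (log2 0.24). Dll1, a Delta-type ligand, was at 12.7 ± 4.71 against 19.6 ± 9.92 CPM (log2 -0.63, SE 0.38, edgeR adjusted p = 0.334), with floxed tumors from 6.94 to 19.6 and controls from 6.19 to 33.5. The 2 HEY genes gave 0.25 (Hey1, SE 0.26) and 0.54 (Hey2, SE 0.40). Pecam1 itself was at 70.6 ± 26.7 against 62.8 ± 20.6 CPM (log2 0.17, SE 0.26, edgeR adjusted p = 0.743).

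**Figure D3:**
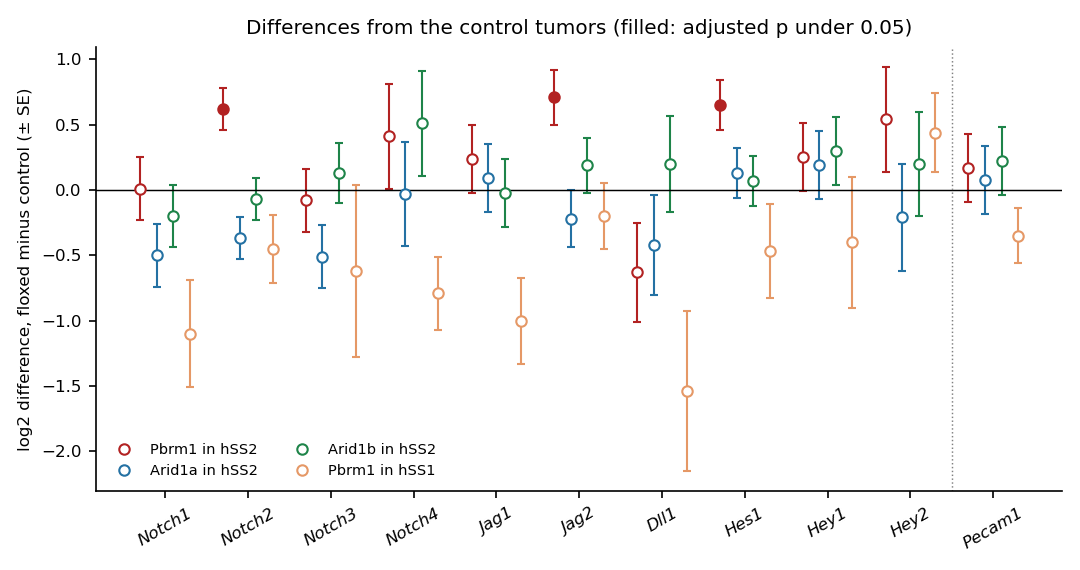
Log2 difference of each floxed group from the control tumors of its background (± SE) for the 10 genes and Pecam1. Filled points passed an adjusted p of 0.05, which in these 4 comparisons were Notch2, Jag2 and Hes1 in hSS2 Pbrm1-fl tumors.

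Since the hSS2 Pbrm1-fl mice all had numbers in the high range, the group was also set against the 4 control tumors of that range. None of the 3 genes passed then: Notch2 differed by 0.54 (edgeR adjusted p = 0.233), Jag2 by 0.33 (0.682) and Hes1 by 0.68 (0.191), with 2.38% of all genes called. Jag2 moved most. Its 4 controls in that range were at 51 ± 10.9 CPM (39.6 to 65.3), above those of the low range (37.9 ± 13.7, n = 5) and the middle range (31.1 ± 10.1, n = 4). Notch2 in controls was at 505 ± 48.4, 537 ± 28.5 and 551 ± 83.7 CPM in the low, middle and high range, and Hes1 at 81.0 ± 22.4, 122 ± 21.7 and 95.1 ± 29.4. Notch1, which was not called, was at 290 ± 89.9 CPM in the 4 controls of the high range and 223 ± 77.5 in Pbrm1-fl. The part of the mouse number range in the 3 differences was otherwise not tested.

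**Figure D4:**
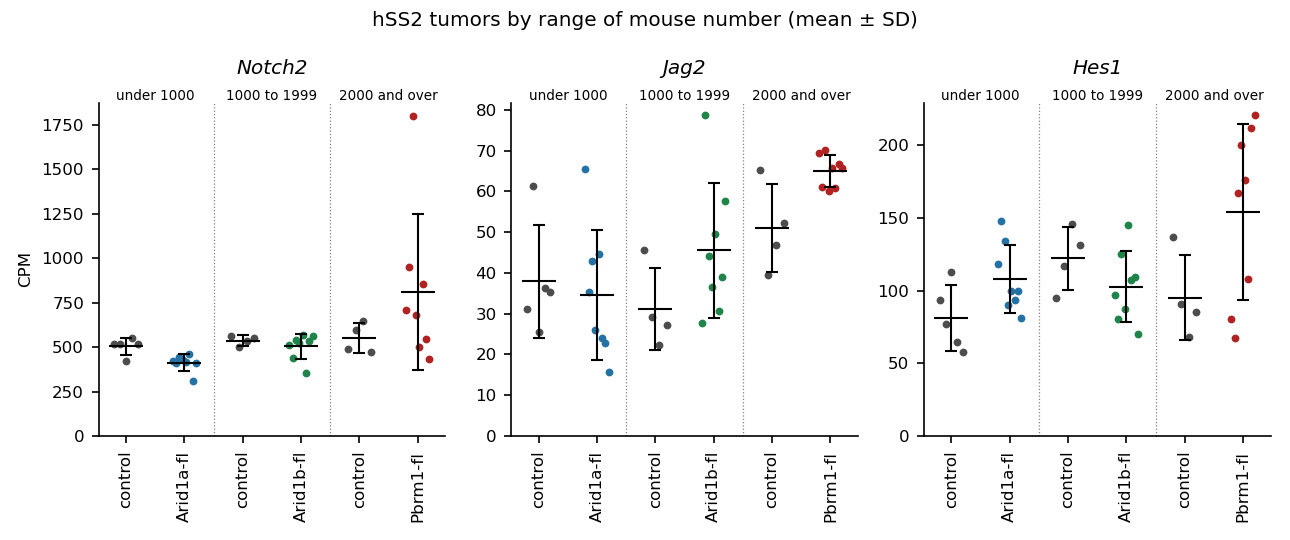
Notch2, Jag2 and Hes1 (CPM, linear axes from 0) in the 37 hSS2 tumors, set out by mouse number range, with controls beside the floxed group of each range and mean ± SD. The 4 Jag2 controls of the high range, 39.6 to 65.3 CPM, reach into the Pbrm1-fl values, 60.1 to 70.2.

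Markers of other cell types were read in the same tumors. The 16 endothelial markers summed to a median of 588 CPM in Pbrm1-fl (295 to 814) and 504 in control tumors (303 to 974), with none at 0, and 1 of 16 was called, Plvap (log2 0.82, edgeR adjusted p = 0.0213). The 10 skeletal muscle markers summed to a median of 201 CPM in Pbrm1-fl (4.52 to 16052) and 3806 in controls (4.06 to 50248), and none was called. The 3 synovial sarcoma markers summed to a median of 266 CPM in Pbrm1-fl (207 to 302) and 349 in controls (244 to 501). All 3 had log2 differences below 0 (median -0.72) and an unadjusted p under 0.05, and none was called (smallest edgeR adjusted p = 0.0521). The 9 mural markers summed to medians of 562 (276 to 1250) and 710 CPM (427 to 2461), 7 of 9 were below 0, and 1 was called, Cspg4 (log2 -0.72, edgeR adjusted p = 0.0131). The 4 satellite cell markers summed to medians of 103 (57.3 to 142) and 60.6 CPM (16.5 to 90.7), with none called. Of 8 macrophage markers, all 8 were above 0 and none was called. The 6 epithelial markers summed to medians of 29.5 (6.65 to 93.6) and 60.4 CPM (12.4 to 169). All 6 were below 0 (median log2 -0.37), and none was called (smallest edgeR adjusted p = 0.0672). Fibroblast markers summed to medians of 3525 (1213 to 13340) and 3506 CPM (1401 to 15249), with 3 of 5 below 0 (median log2 -0.46). Of these 5, 2 had an unadjusted edgeR p under 0.05, beside 22.4% of all genes, and none was called (smallest edgeR adjusted p = 0.0774). Proliferation markers summed to medians of 434 and 298 CPM, 5 of 6 were above 0, and none was called. The part of the sarcoma, mural, satellite cell, macrophage, epithelial, fibroblast and proliferation markers in the 3 Notch calls was not tested. With the mean log2 level of the muscle markers as a covariate, Hes1 no longer passed (log2 0.59, edgeR adjusted p = 0.0653) while Notch2 and Jag2 did. With Pecam1 as a covariate all 3 passed, at log2 0.61 (Notch2), 0.71 (Jag2) and 0.66 (Hes1) with edgeR adjusted p of 0.0128, 0.0217 and 0.0304. In bulk tumor RNA, fewer cells of a type and less RNA per cell cannot be told apart.

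Disruption of Arid1a called none of the 10 genes, where 3.17% of 20083 genes were called. DESeq2 also called 0 of them, where it called 7.6% of all genes. In edgeR 3 had an unadjusted p under 0.05, near the 23.0% of all genes that did. These 3 were receptors with lower values in Arid1a-fl. Notch2 ran from 307 through a median of 420 to 460 CPM in Arid1a-fl, and 5 of the 8 tumors lay below every control, with none above the control median (log2 -0.37, SE 0.16, edgeR adjusted p = 0.164). Notch1 was at 158 ± 61.4 against 221 ± 87.5 CPM (log2 -0.50, edgeR adjusted p = 0.21) and Notch3 at 76.0 ± 25.8 against 107 ± 47.1 (log2 -0.51, edgeR adjusted p = 0.195). Notch4 differed by -0.03, Jag1 by 0.09, Jag2 by -0.22, Dll1 by -0.42, Hes1 by 0.13, Hey1 by 0.19 and Hey2 by -0.21 on the log2 scale. Against the 5 controls of the low range, that of Arid1a-fl, the receptors gave -0.30 (Notch2), -0.27 (Notch1) and -0.07 (Notch3).

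Disruption of Arid1b called none of them either, where 0.0548% of all genes were called, and none had an unadjusted p under 0.05. DESeq2 called 0 of them, beside 0.0603% of all genes. The log2 differences of receptors were -0.20 (Notch1), -0.07 (Notch2), 0.13 (Notch3) and 0.51 (Notch4). Ligands gave -0.02 (Jag1), 0.19 (Jag2) and 0.20 (Dll1), and targets 0.07 (Hes1), 0.30 (Hey1) and 0.20 (Hey2). The smallest edgeR adjusted p was 0.888. Notch4 was the most variable receptor in that group, from 6.45 through 24.3 to 76.4 CPM, and Pecam1 there ran from 27.9 to 158 CPM.

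In hSS1, Pbrm1-fl tumors (n = 4) had no member called against the controls (n = 5), where 0.00562% of the 17786 genes tested, 1 gene, were called. DESeq2 called 0 members, where it called 6.27% of all genes. In edgeR 4 members had an unadjusted p under 0.05, all with lower values in the floxed tumors, where 17.2% of all genes did. Of the 10 log2 differences 9 were below 0, with a median of -0.55 beside 0.01 over all genes, 51.1% of which were above 0. Jag1 had the smallest edgeR adjusted p of the 10. Its controls had 277, 325, 320, 207 and 292 CPM and its floxed tumors 56.1, 139, 177 and 191, with no overlap (log2 -1.0, SE 0.33, edgeR adjusted p = 0.194, DESeq2 adjusted p = 0.0652). Against the 3 controls of the middle range, that of the floxed mice, its edgeR adjusted p was 0.382. How many of all genes separated these groups likewise was not counted. Notch1 had 269, 255, 290, 470 and 109 CPM in controls and 111, 75, 202 and 129 in floxed tumors. Control replicate 5 lay within the floxed values, and the log2 difference was -1.10 (SE 0.41, edgeR adjusted p = 0.23).

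Dll1 had 47.7, 60.2, 41.4, 20 and 27.4 CPM in the hSS1 controls and 6.1, 5.45, 8.49 and 34 in the Pbrm1-fl tumors. Of the floxed tumors 3 lay below every control, and replicate 4 lay among the controls (log2 -1.54, SE 0.61, edgeR adjusted p = 0.25). Against the 3 controls of the middle range the edgeR adjusted p of Dll1 was 0.516. Notch4 had 45.3, 30.3, 20.7, 36.7 and 19.4 CPM against 20.4, 12.5, 17.9 and 19.2 (log2 -0.79, SE 0.28, edgeR adjusted p = 0.216), while Pecam1 had 69.7, 76.3, 43.9, 54.1 and 61.7 against 61.6, 34.5, 45.7 and 49.2 (log2 -0.35, edgeR adjusted p = 0.42). Both sets overlapped. The 16 endothelial markers summed to a median of 596 CPM in hSS1 controls (352 to 636) and 419 in Pbrm1-fl (280 to 517), with none at 0. With Pecam1 as a covariate the Notch4 difference was -0.51 (edgeR adjusted p = 0.509). The 6 proliferation markers summed to a median of 719 CPM in hSS1 Pbrm1-fl (358 to 1032) and 1320 in controls (649 to 1782). All 6 were below 0 (median log2 -0.91) and 5 had an unadjusted edgeR p under 0.05, beside 17.2% of all genes. None was called, and their part was not tested.

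The 3 genes called in hSS2 did not pass the test in hSS1, where each had a log2 difference below 0. Notch2 had 523, 358, 262, 673 and 525 CPM in hSS1 controls and 300, 299, 367 and 392 in Pbrm1-fl (log2 -0.45, edgeR adjusted p = 0.393). Hes1 had 107, 146, 134, 160 and 104 CPM against 37.3, 68.4, 130 and 139 (log2 -0.47), and Jag2 had 34.9, 32.4, 29.4, 24.1 and 18.3 against 31.2, 15.2, 26.2 and 23.7 (log2 -0.20). Floxed and control values overlapped for all 3. Fibroblast markers summed to a median of 4482 CPM in hSS1 Pbrm1-fl (1952 to 5570) and 1248 in the controls (430 to 2052). All 5 were above 0 (median log2 1.48) and 3 had an unadjusted edgeR p under 0.05, beside 17.2% of all genes. None of the fibroblast markers was called, and their part in these values was not tested. Of the rest, Notch3 differed by -0.62, Hey1 by -0.40 and Hey2 by 0.44.

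The difference between backgrounds was tested as an interaction over 46 libraries, the effect of Pbrm1 loss in hSS1 less that in hSS2. The loss itself was unequal: Pbrm1 differed by log2 -0.75 in hSS1 and -1.27 in hSS2 (interaction 0.51, SE 0.19, edgeR adjusted p = 0.125). The paper also reports weaker depletion of Pbrm1 in hSS1 floxed tumors. The part of this unequal loss in the interaction values was not tested. Notch2 was called, at -1.08 (SE 0.29, edgeR adjusted p = 0.0354), 1 of 10 members, where 2.86% of the 21725 genes tested were called. All 10 interaction values were below 0, where 51.2% of all genes were above 0, and 5 had an unadjusted p under 0.05, where 18.9% of all genes did. Hes1 gave -1.13 (SE 0.38, edgeR adjusted p = 0.0875), Jag1 -1.25 (SE 0.46, 0.125), Notch1 -1.13 (0.157) and Jag2 -0.91 (0.168). The Notch2 call was lost without hSS1 Pbrm1-fl replicate 1 (-1.02, edgeR adjusted p = 0.0955) or 2 (-1.02, 0.0839), hSS1 control replicate 1 (0.0695), 4 (-0.89, 0.0714) or 5 (0.0501), or hSS2 Pbrm1-fl replicate 3 (-0.80, 0.0514). Hes1 was gained without hSS1 Pbrm1-fl replicate 4 (0.0436) or hSS2 Pbrm1-fl replicate 1 (0.0487). Within mouse number ranges Notch2 was again -1.08, with an edgeR adjusted p of 0.205, while Notch3 (0.20) and Hey2 (0.26) lay above 0.

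Floxed groups of hSS2 were also compared with each other. These comparisons share the Pbrm1-fl tumors with the one above, and each floxed group lies in its own mouse number range. Between Pbrm1-fl and Arid1a-fl, Notch2 was higher in Pbrm1-fl by 0.99 on the log2 scale (SE 0.18, edgeR adjusted p = 0.000384) and Jag2 by 0.92 (SE 0.24, edgeR adjusted p = 0.00959), 2 of 10 members where 12.3% of all genes were called. In Notch2, 7 of 8 Pbrm1-fl tumors stood above every Arid1a-fl tumor, and the call held without Pbrm1-fl replicate 3 (0.69, edgeR adjusted p = 0.00066). For Jag2, 5 of 8 stood above all Arid1a-fl values, which ran from 15.8 through 30.7 to 65.4 CPM. Hes1 differed by 0.52 (SE 0.22, edgeR adjusted p = 0.11) and was called only without Pbrm1-fl replicate 2 (0.0467).

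Between Pbrm1-fl and Arid1b-fl, only Notch2 was called (log2 0.69, SE 0.18, edgeR adjusted p = 0.0193), where 4.37% of all genes were, and 5 of 8 Pbrm1-fl tumors stood above every Arid1b-fl tumor. Without Pbrm1-fl replicate 3 the difference was 0.42 (edgeR adjusted p = 0.057). Jag2 differed by 0.51 (adjusted p = 0.242) and Hes1 by 0.59 (0.115), the latter called without Pbrm1-fl replicate 1 (0.0437) or 2 (0.0439). Set against the controls of each range, Notch2 gave 0.85 for Pbrm1-fl against Arid1a-fl (edgeR adjusted p = 0.113) and 0.62 against Arid1b-fl, which did not pass either, and Jag2 gave 0.48 (0.501) and -0.24. Between Arid1a-fl and Arid1b-fl none was called by edgeR, where 0.0996% of all genes were, or by DESeq2, where 0.885% were. Notch3 alone had an unadjusted p under 0.05 there (log2 -0.64, edgeR adjusted p = 0.321).

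How far each gene followed the endothelial share was tested as the slope on log2 Pecam1 across the 37 hSS2 tumors, with genotype group in the model. Notch4 was the only one of 10 called, where 1.32% of all genes were, and 13 of the 16 endothelial markers (Pecam1 itself included). Its slope was 1.23 log2 units per log2 unit of Pecam1 (SE 0.16, edgeR adjusted p = 9.26e-06), and it lay between 1.18 and 1.27 with each library left out in turn. Notch4 encodes a receptor known mainly from endothelium. The hSS2 control with the highest Pecam1 (116 CPM) also had the highest Notch4 of its group (60.6 CPM), and so did the Arid1b-fl tumor with 158 CPM of Pecam1 and 76.4 of Notch4. As a description, Pearson's r of log2 CPM, centered on group means, was 0.79 over the 37 tumors and 0.73 without the 2 tumors farthest out in Pecam1, and over the 9 hSS1 tumors it was 0.59, but 0.17 without the 2 farthest. Jag2 also had r = 0.59 with Pecam1 in hSS1, and 0.65 without the 2. The points share library depth and tissue composition.

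The genes called after loss of Pbrm1 had flat slopes, -0.07 for Notch2 (edgeR adjusted p = 0.773) and -0.04 for Hes1 (0.906), except Jag2 at 0.33 (SE 0.13, adjusted p = 0.225). The median log2 ratio of Notch2 to Pecam1 was 3.1 in hSS2 control and 3.27 in Pbrm1-fl tumors. Dll1 had a slope of 0.51 (SE 0.25, edgeR adjusted p = 0.361), Notch1 of 0.33 (SE 0.15, 0.318), Notch3 of 0.26, Hey1 of 0.23, Jag1 of -0.14 and Hey2 of -0.38. Against the mean of the 16 endothelial markers, Pecam1 included, r across the 37 tumors was 0.89 for Notch4 and 0.50 for Notch1. It was 0.47 for Dll1, 0.44 for Jag2, -0.09 for Notch2 and 0.02 for Hes1.

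**Figure D5:**
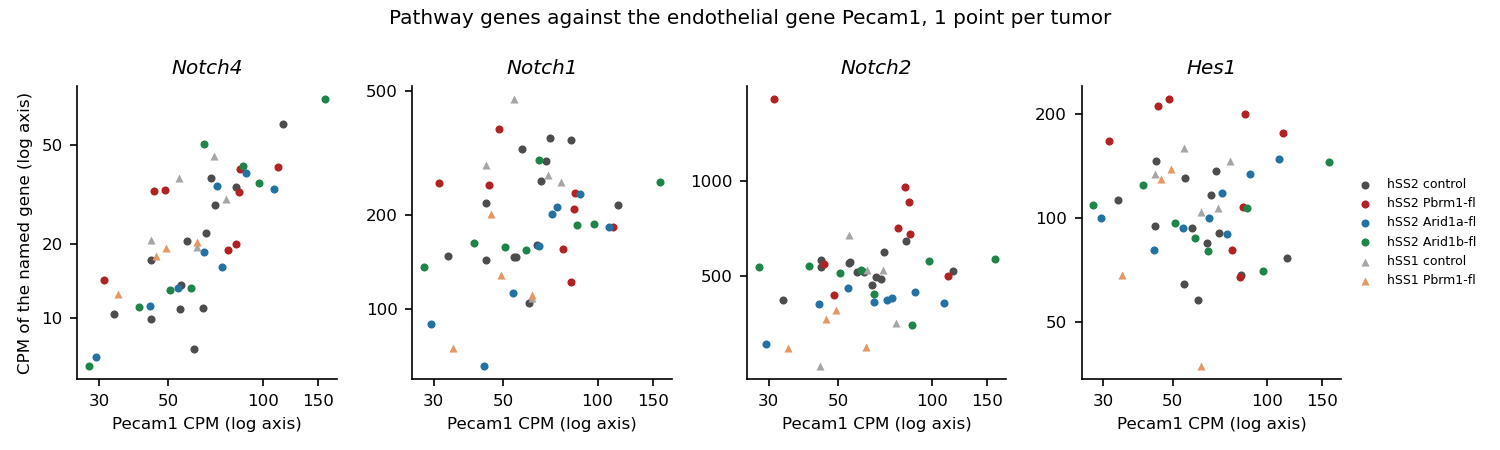
CPM of Notch4, Notch1, Notch2 and Hes1 against CPM of Pecam1 in 46 tumors (both axes log, 1 point a tumor, circles hSS2 and triangles hSS1). Notch4 climbs with Pecam1 (slope 1.23 in hSS2), while Notch2 and Hes1 do not follow it (slopes -0.07 and -0.04).

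Markers of residual muscle, fibroblasts and T cells ran against several members in the same description. With the skeletal muscle markers, r over the 37 hSS2 tumors was -0.61 for Notch1, -0.61 for Notch4, -0.60 for Dll1, -0.41 for Jag2 and -0.40 for Hey1, but 0.13 for Notch2 and -0.19 for Hes1. Fibroblast markers gave -0.59 for Notch1, -0.59 for Notch4, -0.50 for Dll1 and -0.38 for Hes1, but 0.23 for Notch2. T cell markers gave -0.49 for Notch1, -0.45 for Notch4 and -0.55 for Dll1, but 0.41 for Hey2. Proliferation markers gave 0.62 for Notch1, 0.60 for Notch4, 0.51 for Hey1 and 0.48 for Dll1. The same genes tracked each other: Notch1 with Dll1 had r = 0.78, Notch1 with Notch4 0.72, Notch4 with Dll1 0.66 and Notch1 with Hey1 0.58. Jag1 went with Hey2 instead (0.58). In hSS1 (n = 9) the closest pair was Hes1 with Hey1 (0.90). Much of the hSS2 description did not repeat there. With muscle markers r was 0.19 for Notch1, 0.64 for Dll1, 0.36 for Jag2 and 0.59 for Hey1, and -0.17 for Notch4. Notch1 with Dll1 was at 0.10 and Notch4 with Dll1 at 0.22, while Notch1 with Notch4 was at 0.60 and with Hey1 at 0.55.

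The genes most like each member over the 37 hSS2 tumors, among 17315 genes compared by group-centered r of log2 CPM, set Notch4 apart from the rest. Its nearest genes were Cdh5 (0.96), Tie1 (0.95) and Cd93 (0.93), and 9 of its 50 nearest were on the endothelial list, beside 0 of 50 for every other member. Notch1 was nearest to Foxb1 (0.88), Lsm11 (0.86) and Plxnb1 (0.85), and Dll1 to Lsm11 (0.80), Pcdh8 (0.78) and March9 (0.78), so Lsm11 was shared. Notch3 was nearest to Kif1a (0.78), Frmpd1 (0.72) and Tmem151b (0.71). In the 9 hSS1 tumors r was 0.92 for Plxnb1 with Notch1 and 0.94 for Kif1a with Notch3, but -0.08 for Foxb1 with Notch1.

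For Notch2 the nearest were Gm42820 (0.84) and Gm42819 (0.84), which lie on or within the Notch2 gene, so their reads may be shared with it, and Cxadr (0.70). Jag1 was nearest to Gm10115 (0.70), Zswim6 (0.67) and Camk2n1 (0.66), and Jag2 to Fibcd1 (0.83), Wnt3 (0.81) and Lemd1 (0.80). Among targets, Hes1 was nearest to Irf2bpl (0.81), Tada3 (0.75) and Ddr1 (0.71), Hey1 to Nono (0.77), Gm8806 (0.75) and Camk2n2 (0.73), and Hey2 to Smad7 (0.78), Gm42536 (0.75) and Sp7 (0.75). Over 9 hSS1 tumors r stayed high for Smad7 with Hey2 (0.72) and Tada3 with Hes1 (0.66) but was -0.55 for Cxadr with Notch2 and -0.27 for Wnt3 with Jag2. Reads of Notch1, Notch3 and Dll1 overlap antisense genes, and the strand setting of the counting was not stated, so those levels carry that uncertainty.

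Hes1 and Hey1 had no entry in the RefSeq promoter table, so their promoters were not searched. The promoter of Hey2 is shown because it was the only one of the 8 members matched in the RefSeq promoter table to hold TGGGAA, the core letters bound by RBPJ, on either strand within 250 bases before and 50 after the start site. It holds these letters 2 times, once on the opposite strand, 207 bases before the start site, and once on the strand of the gene, 3 bases before it and running across it, both extended to GTGGGAA. Over 32851 promoters of that length 25.6% hold TGGGAA and 6.38% hold GTGGGAA, and a match is a description of the letters, not of binding. The stretch printed is GRCm38.p6 chr10:30842764-30843033, minus strand, 5′ to 3′, with the motif letters in capitals.
Hey2: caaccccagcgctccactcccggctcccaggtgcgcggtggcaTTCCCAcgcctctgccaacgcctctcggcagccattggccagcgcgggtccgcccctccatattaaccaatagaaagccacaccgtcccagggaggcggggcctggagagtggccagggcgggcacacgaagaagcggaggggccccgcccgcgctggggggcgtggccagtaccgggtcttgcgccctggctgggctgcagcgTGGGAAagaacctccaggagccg

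Hey2 (ENSMUSG00000019789) was the lowest of the 10 per length, and it passed no test. It ran from 1.93 through 4.89 to 17.6 CPM in hSS2 controls, from 3.58 through 8.78 to 22.4 in Pbrm1-fl, from 1.36 through 5.45 to 11.8 in Arid1a-fl and from 3.3 through 5.66 to 16.8 in Arid1b-fl tumors. All 4 groups overlapped. In hSS1 it had 3.82, 4.68, 2.92, 4.03 and 2.19 CPM in controls and 3.23, 6.04, 4.63 and 5.18 in Pbrm1-fl. Hey1, its relative, ran from 14.4 through 47.1 to 71.4 CPM in hSS2 controls and from 33.7 through 40.6 to 87.8 in Pbrm1-fl.

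As a list, 50 other genes of the pathway were read, of which 47 passed the filter in hSS2. After loss of Pbrm1 in hSS2, 3 rose and 2 fell, 5 of 47 beside 7.35% of all genes, with a median log2 difference of 0.02 over the 47. Maml2, a Mastermind coactivator, fell to 33.1 ± 10.7 from 59.6 ± 14.7 CPM, with 8 of 8 floxed tumors below the control median (log2 -0.85, SE 0.17, edgeR adjusted p = 0.00183). Mib1, the ubiquitin ligase that lets ligands be internalized, fell to 263 ± 14.3 from 304 ± 32.9 CPM (log2 -0.21, edgeR adjusted p = 0.041). Neurl1b, another ligase of ligands, rose to 62.2 ± 11.2 from 37.2 ± 15 CPM (log2 0.75, edgeR adjusted p = 0.0324), and the Deltex relatives Dtx3l (log2 0.39, edgeR adjusted p = 0.0424) and Dtx3 (log2 0.39, edgeR adjusted p = 0.0491) rose as well. Against controls of their own range none of the 5 passed, with Maml2 at -0.55 (edgeR adjusted p = 0.201).

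Of the same list, Arid1a-fl tumors had only Adam10, a protease that cuts bound receptors, past the threshold (134 ± 16.2 against 110 ± 13.1 CPM, log2 0.28, edgeR adjusted p = 0.0484), 1 of 47 beside 3.17% of all genes. Against controls of the same range it was at 0.31 and no longer passed (edgeR adjusted p = 0.0594). Arid1b-fl tumors in hSS2 and Pbrm1-fl tumors in hSS1 had 0 called by edgeR, with 2 and 9 of 47 genes at an unadjusted p under 0.05, beside 6.22% and 17.2% of all genes. DESeq2 called 0 and 3 (Dll4, Hes6 and Nrarp), beside 0.0603% and 6.27% of all genes. The interaction called 3 of 49 genes, beside 2.86% of all genes. Nrarp, a Notch target that feeds back on the pathway, gave -2.20 (edgeR adjusted p = 0.0119), from 0.69 in hSS2 and -1.51 in hSS1. Hes6, of the HES family, gave -2.72 (edgeR adjusted p = 0.0157), from 0.11 and -2.61, and Mfng, a Fringe glycosyltransferase of the receptors, -1.99 (edgeR adjusted p = 0.0297), from 0.41 and -1.57. None of the 6 single effects passed in edgeR on its own, and within mouse number ranges none of the 3 interactions passed (Nrarp -1.5, Hes6 -1.68 and Mfng -1.05, with edgeR adjusted p of 0.261, 0.336 and 0.509).

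Between Pbrm1-fl and Arid1a-fl 5 of these 47 genes were higher and 4 lower in Pbrm1-fl, beside 12.3% of all genes called, including Adam10 (log2 -0.39, edgeR adjusted p = 0.00347), Maml2 (-0.75, 0.00696) and Neurl1b (0.99, 0.00805). Between Pbrm1-fl and Arid1b-fl, Maml2 was lower (-0.78, edgeR adjusted p = 0.0115) and Rbpjl, a relative of RBPJ, higher (1.39, edgeR adjusted p = 0.0413), 2 of 47 beside 4.37% of all genes. Within mouse number ranges none of the genes named in these comparisons passed: against Arid1a-fl, Adam10 was at -0.44 (edgeR adjusted p = 0.0974), Maml2 at -0.27 (0.65) and Neurl1b at 0.31 (0.703), and against Arid1b-fl, Maml2 was at -0.44 (0.702) and Rbpjl at 1.47 (0.497). Between Arid1a-fl and Arid1b-fl edgeR and DESeq2 called 0 of 47, beside 0.0996% and 0.885% of all genes. In edgeR 6 had an unadjusted p under 0.05, beside 12.5% of all genes. The slope on Pecam1 called 2 of 47, beside 1.32% of all genes, Mfng (0.77, edgeR adjusted p = 0.000169) and Dll4, the Delta ligand of endothelial tip cells (1.01, edgeR adjusted p = 0.00138), both rising with Pecam1 as Notch4 did.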

How the data were processed

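RNA sequencing measured 46 tumors, 1 library each. The authors depleted ribosomal RNA, made stranded paired-end libraries, aligned reads with STAR 2.7.11 to mm10 and counted them with featureCounts 1.6.3. Which annotation and strand setting were used, and how multi-mapping reads were treated, is not given in the sources used here. The deposited values were raw counts per Ensembl gene, as 1 table of hSS2 (56980 genes, 37 libraries) and 1 of hSS1 (56941 genes, 9 libraries). Symbols, positions and lengths came from GENCODE M21 (GRCm38), with a symbol for 91.4% and 91.2% of identifiers. Groups came from the sample titles, and replicates were numbered in accession order within a group, which pairs no tumors. The 178 pairs of libraries within groups all differed beyond counting noise.

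Counts were filtered (filterByExpr on group), scaled by TMM and tested with edgeR 4.0.16 (R 4.3.3, limma 3.58.1) by two-sided robust quasi-likelihood F-tests, with Benjamini-Hochberg adjustment over all genes tested and a threshold of 0.05. One fit held the 37 hSS2 libraries, another the 9 hSS1 libraries, and the interaction all 46. The Pecam1 slope added log2 CPM of Pecam1 to the hSS2 fit. Tests were tried on simulated data with known answers. CPM used a prior count of 2 for logs only. Correlations are of log2 CPM centered on group means.

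Alternatives were DESeq2 1.42.0 (which replaces outlying counts in groups of 7 or more), DESeq2 size factors, no filter, the groups compared alone, controls of the same mouse number range, Pecam1, endothelial or muscle covariates, a threshold of 0.01, and each library left out. Named genes were the members, Pecam1, the targeted genes, other pathway genes past the threshold (at most 6 per comparison) and the 3 genes most like each member (mean of at least 1 CPM). One gene that the rule names is not reported here. The marker genes Plvap and Cspg4 were also named, after their values were seen. Members and lists were chosen with earlier results of these data known.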

Additional observations from a re-analysis of the deposited data

Results flagged for a closer look

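In 6 of 50 sets of 1 gene in 1 group of 4 to 10 tumors, a single tumor stood apart from the rest by Dixon's criterion at the 95% level, which chance gives in about 1 of 20 sets. In hSS2 Pbrm1-fl replicate 3, Notch2 was 1801 CPM, with the next tumor at 953, and Hey2 was 22.4 CPM, with the next at 11.6. The same tumor had the lowest Pecam1 (31.2 CPM) and Notch4 (14.3 CPM) of its group. In hSS2 Arid1a-fl replicate 7, Notch2 was 307 CPM, with the next at 411, and the summed endothelial markers were lowest of that group (239 CPM). Dll1 was 42 CPM in hSS2 Arid1a-fl replicate 4, with the next at 17.6, and 34 CPM in hSS1 Pbrm1-fl replicate 4, with the next at 8.49. Notch3 was 145 CPM in hSS1 Pbrm1-fl replicate 3, with the next at 58, and that tumor had the lowest Pbrm1 of its group (96.1 CPM). The causes were not tested.

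The difference of Notch2 between Pbrm1-fl and control tumors was not the same in the backgrounds, with an interaction of -1.08 on the log2 scale (edgeR adjusted p = 0.0354). Tumors of hSS1 and hSS2 were counted in separate tables, so that background and table cannot be told apart. Pbrm1 itself differed by log2 -1.27 in hSS2 and -0.75 in hSS1, and the part of that unequal loss was not tested.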

How the results depend on the processing

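Against controls of its own range of mouse numbers, members called numbered 0 for Pbrm1 in hSS2 (from 3), 0 for the interaction (from 1), 0 for Pbrm1-fl against Arid1a-fl (from 2) and 0 for Pbrm1-fl against Arid1b-fl (from 1). These fits compare fewer controls and called 477, 9, 436 and 55 of all genes. With the groups compared alone the counts were 1 for Pbrm1 in hSS2 (Jag2) and 0 for Pbrm1-fl against Arid1b-fl. At a threshold of 0.01 they were 0 for Pbrm1 in hSS2, 0 for the interaction and 0 for Pbrm1-fl against Arid1b-fl. With no filter the interaction had 0 (Notch2 -1.06, edgeR adjusted p = 0.0585), and Hes1 in hSS2 had an adjusted p of 0.0501. The cause was not tested.

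With each library left out the count ran from 0 to 3 for Pbrm1 in hSS2, from 0 to 2 for the interaction, from 2 to 3 for Pbrm1-fl against Arid1a-fl and from 0 to 2 for Pbrm1-fl against Arid1b-fl. The count for Pbrm1 in hSS2 was 0 in 1 of 37 fits, the one without Pbrm1-fl replicate 3. It stayed at 0 for Arid1a, Arid1b, Pbrm1 in hSS1 and Arid1a-fl against Arid1b-fl, and at 1 for the Pecam1 slope. No called value changed sign under these alternatives, and uncalled values near 0 did in some. No paired analysis was possible because the labels give no litter or other link between tumors, and replicate numbers follow accession order. The hSS1 comparison rests on 4 against 5 tumors at 10.14 to 14.13 M reads. In it edgeR called 1 of 17786 genes, while DESeq2 called 6.27% of all genes. Values there that missed the threshold do not show equal levels.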
